A study of Mus musculus with 2 samples.

Results

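Described here are 32 genes of fatty acid activation and mitochondrial oxidation, taken by symbol from the 32285 genes listed, in CD45-positive leukocytes of MC38 tumors from mice on a normal or a ketogenic diet. MC38 is a mouse colon adenocarcinoma line, and in both groups its cells were placed under the skin of the flank, in matrigel, in female C57BL/6J mice aged 6 to 8 weeks. One group stayed on a normal diet, the other received a ketogenic diet (low in carbohydrate, rich in fat) from day 4, and tumors of both were taken on day 14, dead cells were removed and CD45-positive cells were enriched on magnetic beads. Each diet has 1 library, pooled from 5 mice with no mark of the mouse on a cell. The spread between mice can therefore not be measured, the diets are compared without a test, and each 95% interval covers counting error only.

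Fatty acids enter a cell with the help of transport proteins and are activated to acyl-CoA by synthetases. Long acyl chains cross the inner mitochondrial membrane as carnitine esters, and matrix enzymes shorten them by repeated rounds of dehydrogenation, hydration, a further dehydrogenation and thiolysis. Electrons of the opening step pass through the electron transfer flavoprotein to the respiratory chain, and isomerases and a reductase handle double bonds. The PPAR receptors, which sense fatty acids, switch on many of these genes, and in macrophages and memory lymphocytes the pathway is known as a source of fuel.

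Sequences before RefSeq start sites (GRCm38.p6), which can differ from the GENCODE gene starts printed with the levels, are shown outside annotated exons for 6 genes. These are Etfb and Acsl1, which differed between the libraries in some classes, Cpt1a and Acadm, whose sequences hold a receptor site, and the pair Hadha and Hadhb, which share theirs. A set of 4 motifs was searched on both strands in the 250 bases before each start, where 29 of the 32 genes had an entry. The PPAR element AGGTCANAGGTCA occurred in 0 of the 29 and in 0.0407% of all 27025 genes with an entry. The single site AGGTCA, of which that element is a repeat, occurred in 4 (Acadm, Acadvl, Cpt1a and Echs1) and in 15.8% of all. TCAAGGTCA, the site of estrogen-related receptors, which contains the single site, occurred in 0 and in 0.422%. The consensus site of NRF1, a regulator of mitochondrial genes, occurred in 3 (Etfb, Etfdh and Ppara) and in 4.23%. Such a match is one of letters in a short window. In the sequences, capitals mark a match to a motif.
Etfb (electron transfer flavoprotein subunit, higher in the ketogenic library in 8 of 8 classes, chr7:43443822-43444071, plus strand, NRF1 site 11 bases before the start): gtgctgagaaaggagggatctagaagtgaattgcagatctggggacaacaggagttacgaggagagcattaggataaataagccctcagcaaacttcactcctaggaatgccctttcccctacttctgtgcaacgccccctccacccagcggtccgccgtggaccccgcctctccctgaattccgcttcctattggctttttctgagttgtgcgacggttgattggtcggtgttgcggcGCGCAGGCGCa
Cpt1a (entry enzyme of the carnitine shuttle, chr19:3323051-3323284, plus strand, inside the GENCODE span of the gene, single site 94 bases before the RefSeq start): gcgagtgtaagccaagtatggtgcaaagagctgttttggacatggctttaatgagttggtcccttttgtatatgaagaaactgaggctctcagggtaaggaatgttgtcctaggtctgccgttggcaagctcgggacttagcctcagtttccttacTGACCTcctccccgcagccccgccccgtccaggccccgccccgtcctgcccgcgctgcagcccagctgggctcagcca
Acadm (medium-chain dehydrogenase and a textbook PPAR target, chr3:153944644-153944893, minus strand, single site 249 bases before the start): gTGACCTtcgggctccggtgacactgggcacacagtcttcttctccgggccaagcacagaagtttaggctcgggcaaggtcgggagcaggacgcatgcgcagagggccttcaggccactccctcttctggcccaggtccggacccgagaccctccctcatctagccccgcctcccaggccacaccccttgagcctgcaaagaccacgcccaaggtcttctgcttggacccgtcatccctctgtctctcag
Acsl1 (synthetase, lower in the ketogenic library in macrophage-gated cells, before the first RefSeq start, chr8:46470787-46471036, plus strand, no match to any of the motifs): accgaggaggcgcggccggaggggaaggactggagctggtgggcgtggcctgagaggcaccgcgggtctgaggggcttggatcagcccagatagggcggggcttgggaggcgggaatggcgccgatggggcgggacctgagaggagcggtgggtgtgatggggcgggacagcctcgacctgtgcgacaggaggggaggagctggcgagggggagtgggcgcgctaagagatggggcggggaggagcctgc
Hadha and Hadhb (the stretch that the promoter windows of this head-to-head pair share outside exons, chr5:30155163-30155230, plus strand, no match): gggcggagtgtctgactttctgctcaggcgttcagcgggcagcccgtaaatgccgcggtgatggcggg

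Levels are in CPM, the depth-scaled count of a gene: its unique molecular identifiers (UMIs), summed over the cells of a class in 1 library, as a scaled share of all UMIs of that class. Pairs of values are given as normal then ketogenic, and a value with an interval in parentheses after such a pair is the ketogenic over normal ratio of CPM. Barcodes with at least 500 UMIs and 300 genes numbered 5671 and 5944, with medians of 4200 and 3922 UMIs, and 7 barcode sequences occur in both libraries. Marker gates that did not use the 32 genes gave 8 classes of at least 50 cells in each library: macrophage-gated (865 and 349 cells), monocyte-gated (1334 and 1166), neutrophil-gated (178 and 126), type 2 conventional dendritic cell (cDC2)-gated (98 and 53), natural killer (NK) cell-gated (1148 and 1966), CD8 T cell-gated (337 and 412) and other T cell-gated cells (181 and 279), and a class led by Rhox5 and Cald1 (66 and 101). Of the markers of each name, 8 of 8 were at least 2-fold over the other barcodes in the macrophage, monocyte and neutrophil gates, 7 of 8 in the cDC2, NK and other T cell gates and 2 of 2 in the CD8 gate. The Rhox5 and Cald1 class reached this for 2 of 6 tumor epithelial markers and is called by its leading genes. Ptprc, which encodes CD45, was at 26.2 and 23.9 CPM in it against 811 and 729.8 CPM over all barcodes, so it goes against the label of leukocytes. The other T cell gate was led by Cd7 and Klra1. Cells whose macrophage and monocyte scores lay within 1.5-fold of each other made up 14.1% and 12.6% of the macrophage gate and 12.8% and 4.97% of the monocyte gate. Barcodes with markers of more than 1 lineage (945 and 916) were kept apart. In these sums, fewer expressing cells and less RNA per cell cannot be told apart.

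Of the 32 genes, 31 had at least 1 UMI in each library and 29 had at least 50 UMIs over both. Together they held 38905 and 48040 UMIs, or 1092 and 1208 CPM, a ketogenic over normal ratio of 1.11 (1.09 to 1.12). The summed level of the 8 classes was lowest in neutrophil-gated cells (679 and 717 CPM) and highest in the Rhox5 and Cald1 class (1229 and 1473 CPM). Macrophage-gated cells had 1065 and 1149 CPM (ratio 1.08, 1.02 to 1.14), monocyte-gated cells 920.2 and 1036 CPM (1.13, 1.08 to 1.17), NK-gated cells 1215 and 1255 CPM (1.03, 1.01 to 1.06), CD8-gated cells 1204 and 1249 CPM (1.04, 0.988 to 1.09) and other T cell-gated cells 1077 and 1194 CPM (1.11, 1.01 to 1.22). The ratio was highest in the Rhox5 and Cald1 class (1.198, 1.14 to 1.26), and the intervals of neutrophil-gated (1.06, 0.858 to 1.303) and cDC2-gated cells (1.003, 0.873 to 1.15) include 1.

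**Figure D1:**
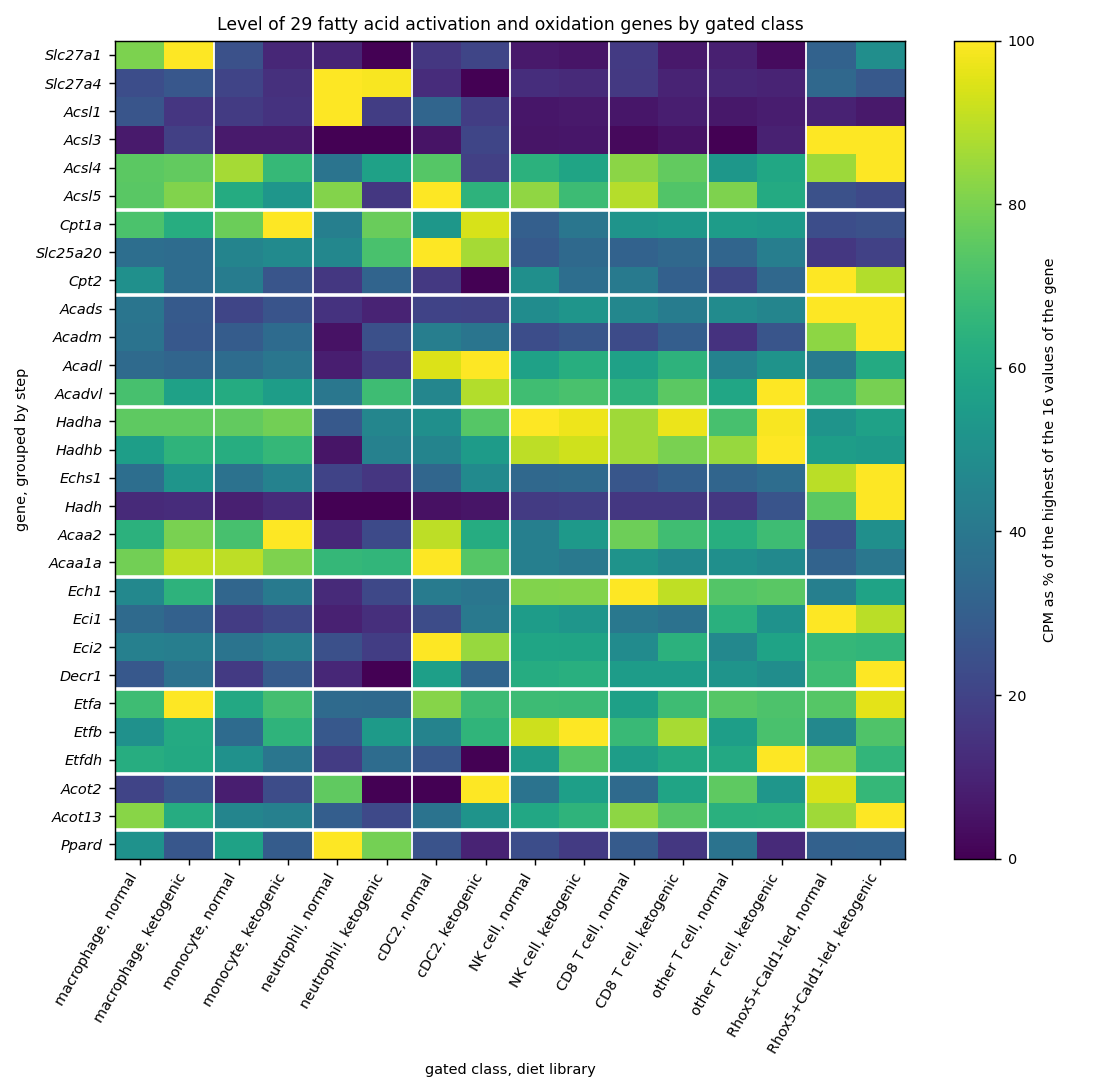
Level of the 29 genes with at least 50 UMIs (rows, in pathway order) in the 8 gated classes of each library (columns), drawn as a percentage of the highest of the 16 values of that gene. Acsl3 and Hadh are brightest in the Rhox5 and Cald1 class of both libraries, Slc27a1 in macrophage-gated cells and Slc27a4 in neutrophil-gated cells.

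Among the genes of uptake and activation, Slc27a1 (chr8:71568882-71587302, GRCm38), a membrane protein that takes up and activates fatty acids, had its highest level in macrophage-gated cells. It was at 28.9 (24.0 to 34.5) and 36.0 (27.0 to 47.1) CPM there, or 2.55 (1.65 to 4.10) and 2.03 (1.39 to 2.96) times the Rhox5 and Cald1 class, which followed in both libraries with 11.3 and 17.8 CPM. Monocyte-gated cells had 8.92 and 3.95 CPM and NK-gated cells 2.41 and 2.11 CPM. Between the libraries the monocyte ratio was 0.442 (0.239 to 0.782) from 49 and 17 UMIs and the macrophage ratio 1.25 (0.887 to 1.74). In barcodes of at most 100 UMIs, which hold mostly free RNA, Slc27a1 was at 15.97 and 4.62 CPM, above its monocyte levels. The part of free RNA in the monocyte ratio was not tested. The monocyte ratio took other values under other definitions of the cells, and the part of the definition in it was not tested. In that gate the 8 macrophage markers summed to 3531 and 2385 CPM. With cells near the macrophage cut left out, an alternative chosen after seeing the data, the log2 ratio of Slc27a1 was −0.71 instead of −1.18. That value lies within the counting interval of the ratio. With Leiden clusters in place of gates its log2 ratio was 0.75, from 17 UMIs in both libraries together. Its relative Slc27a4 (chr2:29802634-29817522) was highest in neutrophil-gated cells at 45.3 (23.4 to 79.0) and 44.8 (23.2 to 78.3) CPM, from 12 and 12 UMIs, 2.94 (1.39 to 5.83) and 3.55 (1.71 to 6.79) times the Rhox5 and Cald1 class that followed.

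Acsl1 (chr8:46471037-46536051), a long-chain acyl-CoA synthetase known to be induced in activated myeloid cells, was at higher CPM in the 4 myeloid gates than in the lymphocyte gates of both libraries. Macrophage-gated cells had 32.6 (27.4 to 38.6) and 19.7 (13.2 to 28.3) CPM, with the ratio at 0.604 (0.390 to 0.907), and monocyte-gated cells 21.8 and 18.3 CPM, with the ratio at 0.840 (0.624 to 1.12). Neutrophil-gated cells had 124 (85.7 to 175) and 22.4 (8.23 to 48.8) CPM from 33 and 6 UMIs, intervals that do not overlap, but the UMIs stay under the 50 required for a ratio. NK-gated cells had 7.38 and 8.70 CPM, CD8-gated cells 7.54 and 10.7 CPM and other T cell-gated cells 8.02 and 10.1 CPM. Within macrophage-gated cells the Leiden cluster led by C1qa, with 507 and 206 cells, had 32.1 and 24.4 CPM (0.760, 0.461 to 1.21) and the cluster led by Pf4, with 254 and 99 cells, 33.7 and 10.5 CPM (0.312, 0.0808 to 0.866). The cluster led by Ctsk and Mmp9, with 35 and 23 cells, had 3 and 0 UMIs, or 46.8 and 0 CPM. With each cluster at equal weight in both libraries, this small one included, the log2 ratio of the gate was −1.69 instead of −0.73. Over all barcodes Acsl1 was at 20.7 and 13.7 CPM (0.661, 0.591 to 0.740), while macrophage-gated cells were 15.3 and 5.87% of barcodes, and the part of these shares in that ratio was not tested.

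Acsl3 (chr1:78657825-78707743), a synthetase of lipid droplets and the endoplasmic reticulum, was at 35.7 (28.3 to 44.5) and 35.8 (29.96 to 42.4) CPM in the Rhox5 and Cald1 class. That was 13.7 (7.27 to 28.6) and 4.79 (1.3 to 39.96) times the class that followed, macrophage-gated cells in the normal and cDC2-gated cells, with 2 UMIs, in the ketogenic library. The gene overlaps Utp14b on the same strand, so UMIs of the pair may be mixed. Acsl5, a synthetase of mitochondria and the endoplasmic reticulum, was low in that class with 17.2 and 15.3 CPM, against 57.9 and 47.5 CPM in NK-gated, 61.7 and 50.6 CPM in CD8-gated and 51.6 and 56.4 CPM in macrophage-gated cells. Its NK ratio was 0.820 (0.719 to 0.936). Acsl4, which prefers arachidonic acid, was at 29.3 and 29.9 CPM in macrophage-gated, 34.0 and 26.2 CPM in monocyte-gated (0.771, 0.605 to 0.979) and 25.3 and 22.9 CPM in NK-gated cells.

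In the carnitine shuttle, Cpt1a (chr19:3322334-3385733), which commits long chains to oxidation at the outer membrane, was highest in monocyte-gated cells and lowest in the Rhox5 and Cald1 class of both libraries. Monocyte-gated cells had 33.9 (29.2 to 39.1) and 43.6 (37.6 to 50.4) CPM, macrophage-gated cells 31.2 and 27.2 CPM, CD8-gated cells 22.6 and 23.3 CPM, other T cell-gated cells 24.0 and 23.5 CPM, NK-gated cells 13.2 and 17.1 CPM and the Rhox5 and Cald1 class 10.4 and 10.8 CPM. The monocyte level did not differ beyond counting error from the gate next in order, macrophages in the normal library (ratio of the pair 1.08, 0.863 to 1.37) and cDC2 in the ketogenic library. Between the libraries Cpt1a had ratios of 1.29 (1.05 to 1.59) in monocyte-gated, 1.297 (1.01 to 1.68) in NK-gated and 0.871 (0.596 to 1.25) in macrophage-gated cells, all under 1.5-fold. Within monocyte-gated cells the cluster led by Hp and Mgst1 had 52.6 and 72.1 CPM (1.37, 0.931 to 2.04), the cluster led by Vcan and Chil3 26.2 and 32.1 CPM (1.23, 0.848 to 1.78), the cluster led by C1qa 31.8 and 34.2 CPM (1.07, 0.555 to 1.97), the cluster led by Pf4 35.4 and 32.2 CPM (0.909, 0.350 to 2.12) and that led by Tnfrsf4 and Icos, which are T cell genes, 38.2 and 38.6 CPM (1.01, 0.377 to 2.62). All 5 intervals include 1, and the Hp and Mgst1 cluster, with the highest level, held 219 and 359 cells of the gate. Of all barcodes of the Tnfrsf4 and Icos cluster, 76.8% had markers of more than 1 lineage. Within NK-gated cells the ratios lay on both sides of 1. The cluster led by Hbb-bs and Xcl1 (435 and 629 cells) had 15.1 and 11.5 CPM (0.766, 0.486 to 1.21), that led by Gzma (374 and 844 cells) 12.6 and 21.7 CPM (1.73, 0.876 to 3.72), that led by Gzmg 8.34 and 17.4 CPM (2.08, 0.947 to 5.06) and that led by Tnfrsf4 and Icos 19.4 and 26.5 CPM (1.37, 0.685 to 2.78). The cluster led by cell cycle genes had 4.94 and 17.7 CPM (3.58, 1.40 to 11.7) from 5 and 36 UMIs, and that led by Cd7 and Klra1 only 1 and 2 UMIs. Erythroid markers summed to 251 and 2.38 CPM and mitochondrially encoded genes to 24705 and 16672 CPM in the NK gate, and the part of these and of the clusters in its Cpt1a ratio was not tested.

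Slc25a20, the carrier of acylcarnitines through the inner membrane, was at 73.3 (51.9 to 101) and 63.5 (37.0 to 102) CPM in cDC2-gated, 33.1 and 35.1 CPM in monocyte-gated, 26.5 and 25.8 CPM in macrophage-gated, 20.7 and 25.2 CPM in NK-gated and 11.8 and 14.3 CPM in Rhox5 and Cald1 cells. Cpt2, which returns the chain to CoA in the matrix, had another order: it was highest in the Rhox5 and Cald1 class, where Cpt1a was lowest. That class had 23.1 and 20.4 CPM, macrophage-gated cells 11.6 and 8.16 CPM, NK-gated cells 11.5 and 8.33 CPM (0.724, 0.531 to 0.990) and monocyte-gated cells 9.65 and 6.04 CPM. The monocyte ratio of 0.626 (0.376 to 1.02) is past 1.5-fold with an interval that includes 1.

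The 4 acyl-CoA dehydrogenases open each round of oxidation and differ in the chain length they accept. Acadvl, for very long chains, was at 27.0 and 21.8 CPM in macrophage-gated, 23.3 and 21.1 CPM in monocyte-gated, 26.3 and 27.1 CPM in NK-gated, 24.5 and 28.4 CPM in CD8-gated, 22.4 and 38.0 CPM in other T cell-gated and 26.2 and 30.1 CPM in Rhox5 and Cald1 cells. It was at 17.4 and 33.6 CPM in cDC2-gated and 15.1 and 26.2 CPM in neutrophil-gated cells, from at most 9 UMIs in each library. Acadl, for long chains, was highest in cDC2-gated cells at 212 (174 to 256) and 224 (171 to 288) CPM, 1.65 (1.34 to 2.02) and 1.55 (1.16 to 2.02) times the next class. It was at 128 and 141 CPM in NK-gated, 128 and 145 CPM in CD8-gated, 77.6 and 73.4 CPM in macrophage-gated and 79.2 and 87.8 CPM in monocyte-gated cells.

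Acadm (chr3:153922357-153944632), for medium chains, was at 63.8 and 76.7 CPM in the Rhox5 and Cald1 class, 32.8 and 29.9 CPM in cDC2-gated, 29.3 and 21.1 CPM in macrophage-gated (0.719, 0.468 to 1.07), 22.2 and 26.9 CPM in monocyte-gated (1.21, 0.932 to 1.58) and 18.2 and 20.5 CPM in NK-gated cells. Acads, for short chains, was also highest in the Rhox5 and Cald1 class with 76.4 and 76.4 CPM, 2.05 (1.68 to 2.50) and 1.92 (1.65 to 2.24) times NK-gated cells. None of the 4 genes reached 1.5-fold between the libraries in the macrophage, monocyte, NK, CD8 or Rhox5 and Cald1 gates. The ratio nearest to it was that of Acadl in the Rhox5 and Cald1 class, 1.47 (1.24 to 1.73) from 93.6 and 137 CPM.

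Hadha (chr5:30118304-30155162) and Hadhb (chr5:30155248-30184593) encode the subunits of the trifunctional protein, which carries out the remaining steps on long chains, and lie head to head on opposite strands, with their RefSeq starts, which lie inside these GENCODE spans, 273 bases apart. Hadha was at 81.2 and 79.1 CPM in NK-gated, 69.8 and 79.0 CPM in CD8-gated, 61.7 and 63.8 CPM in monocyte-gated, 61.0 and 61.2 CPM in macrophage-gated and 42.1 and 46.5 CPM in Rhox5 and Cald1 cells. Hadhb followed the same order over these 5 gates in the normal library, with 61.5 and 63.3 CPM, 58.4 and 54.5 CPM, 42.4 and 45.3 CPM, 38.1 and 44.2 CPM and 38.0 and 37.1 CPM. Between the libraries Hadha had ratios of 1.003 (0.780 to 1.28) in macrophage-gated, 1.03 (0.879 to 1.22) in monocyte-gated, 0.974 (0.875 to 1.08) in NK-gated and 1.13 (0.925 to 1.39) in CD8-gated cells.

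Hadh (chr3:131233419-131272101), the dehydrogenase for medium and short chains, was at 96.8 (84.2 to 111) and 129 (118 to 141) CPM in the Rhox5 and Cald1 class, 4.29 (3.48 to 5.30) and 3.86 (2.67 to 5.79) times the next class, NK-gated cells in the normal and other T cell-gated cells in the ketogenic library. It was at 15.4 and 16.3 CPM in macrophage-gated and 11.5 and 15.8 CPM in monocyte-gated cells and had 0 UMIs in neutrophil-gated cells. Echs1, the short-chain hydratase, was at 84.1 and 93.9 CPM in the Rhox5 and Cald1 class, 34.1 and 48.9 CPM in macrophage-gated (1.44, 1.07 to 1.92) and 31.7 and 32.4 CPM in NK-gated cells.

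Of the thiolases, which release acetyl-CoA, the peroxisomal Acaa1a was at 75.9 and 87.7 CPM in macrophage-gated, 86.7 and 77.8 CPM in monocyte-gated, 41.7 and 38.8 CPM in NK-gated and 30.7 and 38.2 CPM in Rhox5 and Cald1 cells. The mitochondrial Acaa2 (chr18:74779197-74806208) was at 47.0 and 66.4 CPM in monocyte-gated (1.41, 1.19 to 1.68), 28.5 and 35.9 CPM in NK-gated (1.26, 1.06 to 1.498) and 51.8 and 46.1 CPM in CD8-gated cells (0.889, 0.694 to 1.14). In the Rhox5 and Cald1 class Acaa2 was at 16.7 (11.8 to 23.1) and 33.1 (27.5 to 39.5) CPM from 37 and 123 UMIs, with the ratio at 1.98 (1.36 to 2.94). Cells of this class had medians of 32798 and 32489 UMIs. With 64 and 98 of them thinned to 1000 UMIs each, the log2 ratio was −0.61 instead of 0.98. Thinning discards most UMIs of such cells, so that value rests on far fewer than 37 and 123 UMIs of Acaa2.

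Among the double-bond enzymes, Ech1, an isomerase of dienoyl-CoA, was highest in CD8-gated cells, at 191 (173 to 210.4) and 172 (159 to 186) CPM, and at 155 and 156 CPM in NK-gated, 89.4 and 124 CPM in macrophage-gated and 63.4 and 78.5 CPM in monocyte-gated cells. Its ratio between the libraries was 1.38 (1.15 to 1.66) in macrophage-gated, 1.24 (1.06 to 1.44) in monocyte-gated and 1.004 (0.930 to 1.08) in NK-gated cells. The enoyl-CoA isomerase genes Eci1 and Eci2 were at 46.0 and 43.9 CPM and at 36.2 and 36.0 CPM in NK-gated cells and at 14.9 and 17.9 CPM and at 23.9 and 26.5 CPM in monocyte-gated cells. Decr1 (chr4:15917240-15945507), the reductase for polyunsaturated chains, was at 21.2 and 21.5 CPM in NK-gated, 9.46 and 12.9 CPM in macrophage-gated and 5.83 (3.99 to 8.22) and 9.75 (7.03 to 13.2) CPM in monocyte-gated cells. The monocyte ratio of 1.67 (1.03 to 2.74) rests on 32 and 42 UMIs. In barcodes of at most 100 UMIs, which hold mostly free RNA, Decr1 was at 11.7 and 26.5 CPM, above its monocyte levels. The part of free RNA in the monocyte ratio was not tested.

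**Figure D2:**
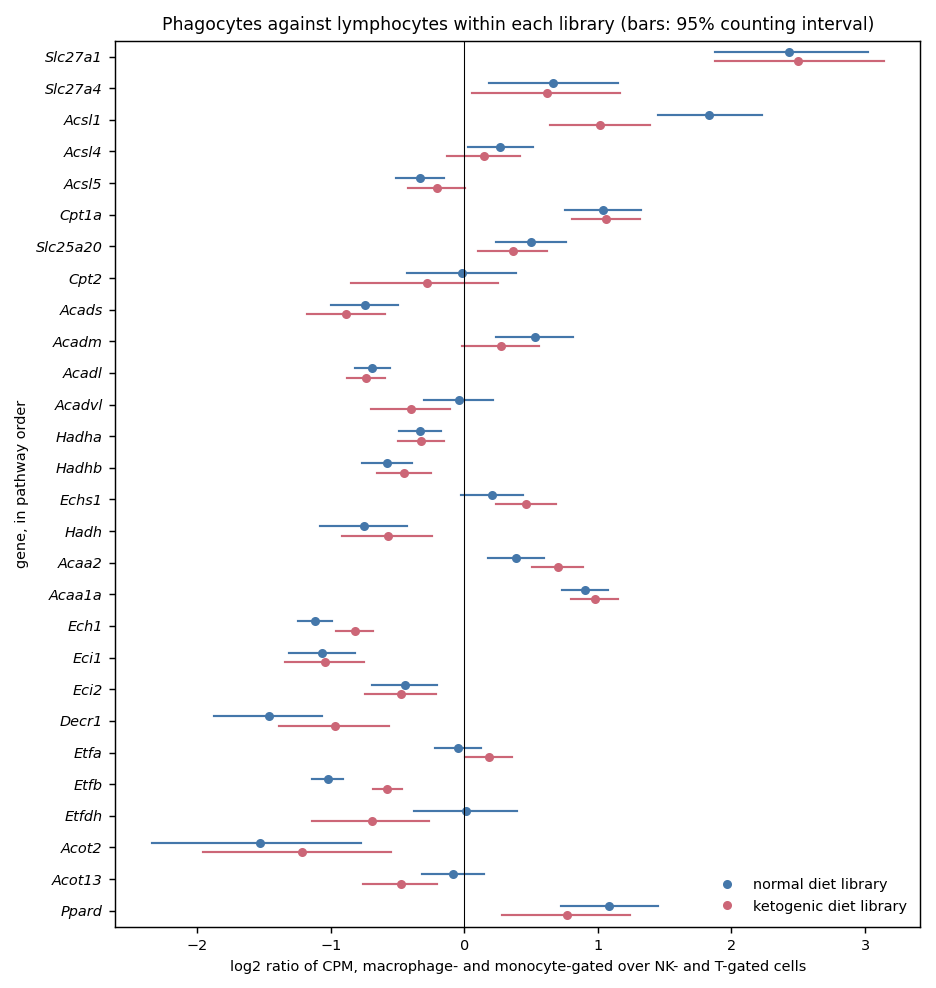
Log2 ratio of CPM of macrophage- and monocyte-gated cells over NK-, CD8 T- and other T cell-gated cells, each summed as 1 group (x axis). Rows are the 28 genes with at least 50 UMIs in each library, in pathway order. Points show the normal and ketogenic library and bars the 95% counting interval. Slc27a1, Acsl1, Cpt1a and Acaa1a lie on the phagocyte side and Ech1, Eci1, Decr1 and Etfb on the lymphocyte side in both libraries.

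With macrophage- and monocyte-gated cells set against NK- and T cell-gated cells, 8 of 28 genes were higher in phagocytes, with an interval that excludes 1 in both libraries, and 11 of 28 were higher in lymphocytes. Over all 10031 genes these shares were 30.3% and 37.6%, so the counts are near the background and say nothing particular about these genes. The phagocyte genes were Slc27a1, Slc27a4, Acsl1, Cpt1a, Slc25a20, Acaa1a, Acaa2 and Ppard. The phagocyte over lymphocyte ratio was 5.38 (3.67 to 8.12) and 5.64 (3.68 to 8.82) for Slc27a1, 3.56 (2.74 to 4.68) and 2.02 (1.56 to 2.62) for Acsl1 and 2.05 (1.69 to 2.50) and 2.08 (1.75 to 2.49) for Cpt1a. The lymphocyte genes were Acads, Acadl, Hadh, Hadha, Hadhb, Ech1, Eci1, Eci2, Decr1, Etfb and Acot2. The ratio was 0.363 (0.273 to 0.477) and 0.512 (0.383 to 0.675) for Decr1, 0.462 (0.422 to 0.504) and 0.567 (0.515 to 0.624) for Ech1 and 0.621 (0.566 to 0.680) and 0.600 (0.543 to 0.663) for Acadl. Ribosomal protein genes took 271292 and 284712 CPM in NK-gated and 115951 and 143358 CPM in monocyte-gated cells. Without mitochondrial and ribosomal UMIs, 5 genes (Cpt1a, Acsl1, Slc27a1, Acaa1a and Ppard) were higher in phagocytes and 14 in lymphocytes, where 23.3% and 49.3% of 9939 genes were, so these counts too are near the background.

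In electron transfer, Etfa and Etfb encode the subunits of the flavoprotein that takes electrons from the dehydrogenases, and Etfdh passes them to ubiquinone. Etfb (chr7:43444083-43457800) had the highest ratio between the libraries of the 27 members measured in monocyte-gated cells. It was at 81.7 (74.4 to 89.7) and 152 (140.2 to 164) CPM there, from 449 and 653 UMIs, with the ratio at 1.85 (1.64 to 2.10). It was at 109 and 169 CPM in the Rhox5 and Cald1 class (1.56, 1.34 to 1.81), 159 and 203 CPM in CD8-gated (1.28, 1.12 to 1.46), 118 and 143 CPM in macrophage-gated (1.21, 1.02 to 1.42) and 216 and 234 CPM in NK-gated cells (1.08, 1.01 to 1.15). Neutrophil-gated cells had 64.1 and 127 CPM from 17 and 34 UMIs (1.98, 1.08 to 3.78), cDC2-gated cells 104 and 153 CPM (1.47, 0.955 to 2.25) and other T cell-gated cells 131 and 166 CPM (1.27, 0.961 to 1.68). The ketogenic library was thus higher in 8 of 8 classes, with an interval that excludes 1 in 6, and whether the ratio differs between classes was not tested. Within NK-gated cells it was 1.19 (1.08 to 1.32) in the Hbb-bs and Xcl1 cluster, 0.995 (0.813 to 1.22) in the Gzma cluster and 1.11 (0.953 to 1.29) in the Gzmg cluster. The cell cycle cluster had 0.888 (0.764 to 1.03), that of Tnfrsf4 and Icos 0.993 (0.769 to 1.28) and that of Cd7 and Klra1 3.17 (1.23 to 9.66). Macrophage-gated cells had 1.17 (0.951 to 1.42) in the C1qa and 1.24 (0.870 to 1.74) in the Pf4 cluster. The Ctsk and Mmp9 cluster, with 35 and 23 cells, went the other way. It had 19 and 0 UMIs, or 297 and 0 CPM (0, 0 to 0.829).

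Within monocyte-gated cells Etfb was at 74.9 and 138 CPM (1.84, 1.52 to 2.25) in the cluster led by Vcan and Chil3, 159 and 224 CPM (1.40, 1.13 to 1.76) in that led by Hp and Mgst1 and 64.3 and 72.9 CPM (1.13, 0.731 to 1.72) in that led by C1qa, which held 315 and 114 cells. It was at 51.6 and 64.5 CPM (1.25, 0.641 to 2.35) in that led by Pf4 and 66.8 and 172 CPM (2.57, 1.48 to 4.59) in the 25 and 23 cells of that led by Tnfrsf4 and Icos. Of all barcodes of the Tnfrsf4 and Icos cluster, 76.8% were of mixed lineage. With clusters at equal weight, this one included, the log2 ratio of the gate was 0.69 instead of 0.89. The share of monocyte-gated cells with an Etfb UMI was 26.2% and 38.2%, and after thinning to 1000 UMIs 7.92% (6.52 to 9.52) and 12.9% (11.1 to 15.02). In barcodes of at most 100 UMIs, which hold mostly free RNA, Etfb was at 136 and 217 CPM, above its levels in the gate. With that profile subtracted at a small fixed share of the gate's UMIs, the log2 ratio was 0.91. That share was assumed and not estimated, so the part of free RNA in the ratio was not tested.

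Other measures moved between the libraries too. In monocyte-gated cells mitochondrially encoded genes were at 21274 and 14574 CPM, and the 8 macrophage markers summed to 3531 and 2385 CPM. With all genes ranked by longest transcript into 4 equal bins, the shortest bin, to which Etfb with 893 bases belongs, had a median log2 ratio of 0.05 and the longest bin of −0.27. In the Rhox5 and Cald1 class mitochondrially encoded genes were at 38258 and 21750.2 CPM and fibroblast markers at 781 and 1035 CPM. With its cells thinned to 1000 UMIs, which leaves far fewer UMIs, the Etfb log2 ratio was 0.303 instead of 0.637. The part of these in the Etfb ratios was not tested. Etfa was at 59.8 and 87.0 CPM in macrophage-gated (1.45, 1.17 to 1.81), 52.6 and 61.1 CPM in monocyte-gated (1.16, 0.978 to 1.38) and 59.6 and 59.2 CPM in NK-gated cells. Etfdh was at 13.2 and 12.9 CPM in macrophage-gated, 10.7 and 8.36 CPM in monocyte-gated (0.778, 0.499 to 1.198) and 11.6 and 15.7 CPM in NK-gated cells (1.34, 1.03 to 1.77).

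**Figure D3:**
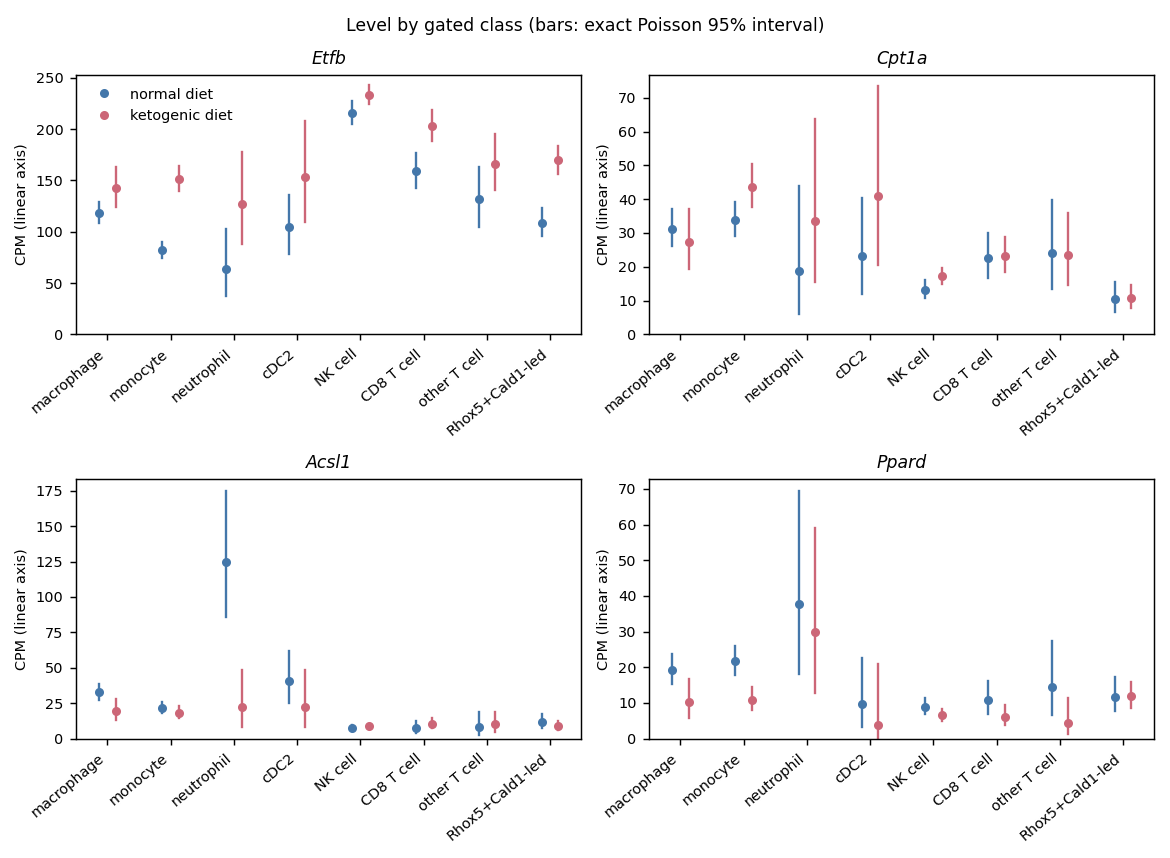
CPM (y axis) of Etfb, Cpt1a, Acsl1 and Ppard in the 8 gated classes (x axis), with a point for the normal and the ketogenic library and bars for the exact 95% Poisson interval. Etfb is higher in the ketogenic library in each class, and Ppard is lower in it in the macrophage and monocyte gates.

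Of the thioesterases, which split acyl-CoA again, Acot13 was at 41.6 and 31.3 CPM in macrophage-gated, 22.9 and 22.1 CPM in monocyte-gated and 30.4 and 33.0 CPM in NK-gated cells, with ratio intervals that include 1. Acot2 was at 5.68 and 8.42 CPM in NK-gated cells (1.48, 1.01 to 2.21), and close relatives of this gene can share reads with it.

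Among the regulators, Ppard (chr17:28232700-28301474), the PPAR found in most tissues, was lower in the ketogenic library in both phagocyte gates. It was at 19.2 (15.2 to 23.8) and 10.2 (5.71 to 16.8) CPM in macrophage-gated cells, from 81 and 15 UMIs, with the ratio at 0.532 (0.285 to 0.931). In monocyte-gated cells it was at 21.7 (17.9 to 25.9) and 10.9 (8.02 to 14.5) CPM, from 119 and 47 UMIs, with the ratio at 0.504 (0.351 to 0.712). NK-gated cells had 8.94 and 6.50 CPM (0.727, 0.510 to 1.04) and the Rhox5 and Cald1 class 11.8 and 11.8 CPM (1.01, 0.606 to 1.70). Within the monocyte gate the values were 18.0 and 8.26 CPM (0.458, 0.243 to 0.826) in the cluster led by Vcan and Chil3 and 22.4 and 14.9 CPM (0.666, 0.324 to 1.38) in that led by Hp and Mgst1. The other clusters had ratios of 0.474, 0.250 and 0.337 from 2 to 4 ketogenic UMIs, with intervals that include 1.

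The longest Ppard and Acsl1 transcripts have 3726 and 5676 bases. In macrophage-gated cells genes of the third of these bins, that of Ppard, had a median log2 ratio of −0.20 with 17.7% of them at least 1.5-fold lower, and those of the longest bin, that of Acsl1, a median below it with 22.1% lower. In that gate mitochondrially encoded genes were at 17198 and 10787 CPM and the 8 monocyte markers at 5093 and 4096 CPM. The part of these in the Ppard and Acsl1 ratios was not tested. Ppara, the PPAR of liver fat oxidation, had 0 UMIs, which allows up to 3 of 35623303 and 3 of 39758619 UMIs. Ppargc1a, a coactivator of mitochondrial genes, had 9 and 20 UMIs, of which 7 and 11 lay in NK-gated cells. Pdk4, a kinase that spares glucose and a known PPAR target, had 1 and 3 UMIs. A difference in these 3 genes was not detectable at this depth.

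**Figure D4:**
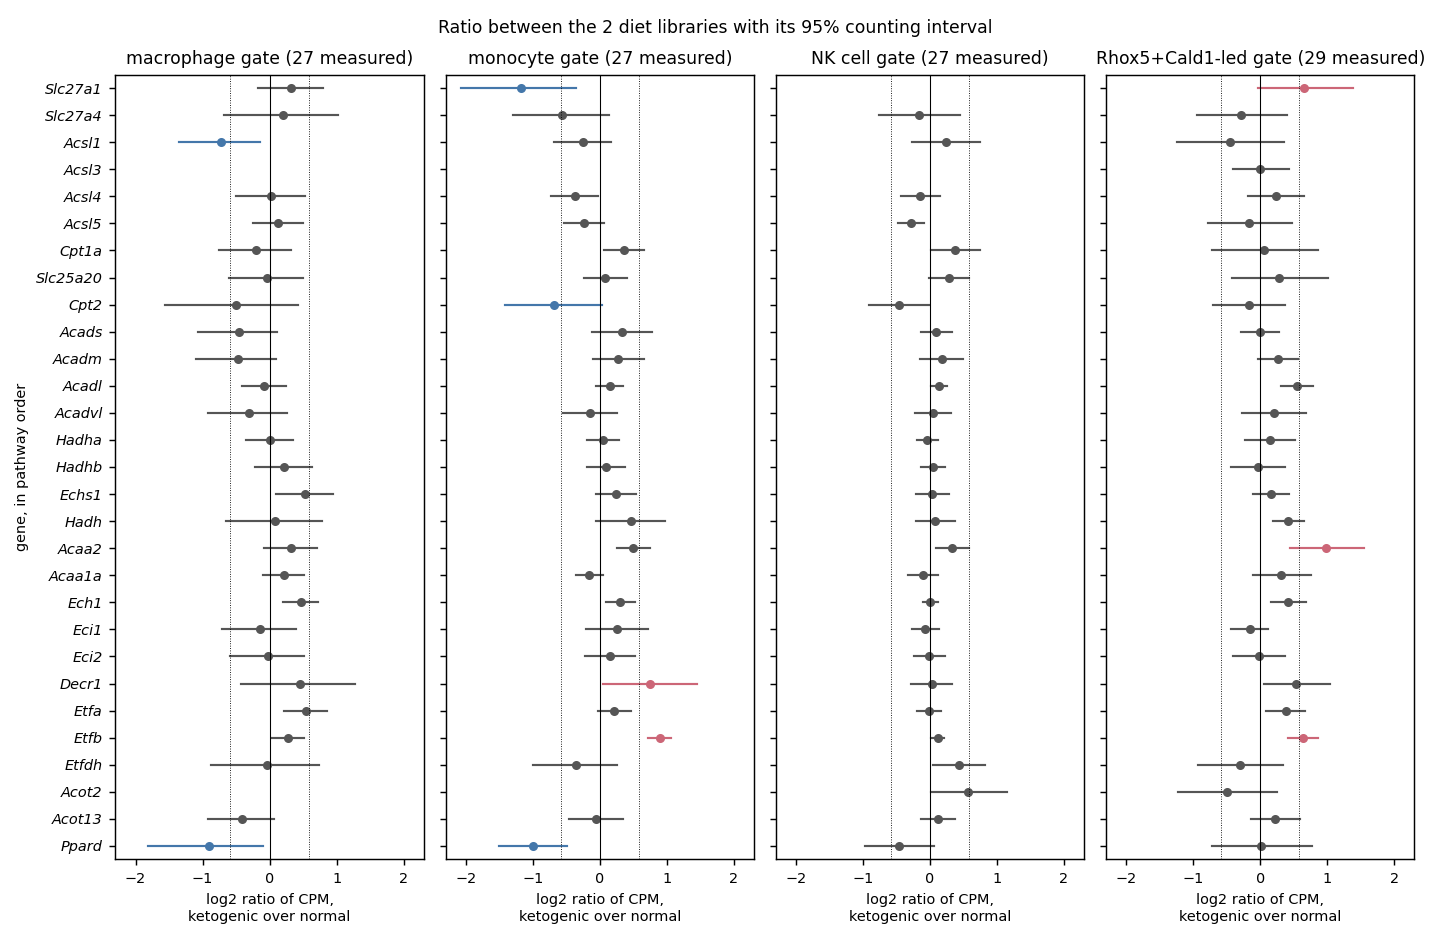
Log2 ratio of CPM, ketogenic over normal, with its 95% counting interval (x axis) for the measured genes (rows, pathway order) in 4 gates, with dotted lines at 1.5-fold. Colored points are at least 1.5-fold higher or lower, such as Etfb and Ppard in monocyte-gated cells.

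Counts of members past 1.5-fold were set beside all genes with at least 50 UMIs in the same class. In macrophage-gated cells 0 of 27 members were higher and 2 (Acsl1 and Ppard) lower, where 2.5% of 7678 genes were higher and 14.2% lower. The median log2 ratio was 0.00 over the members and −0.14 over all genes. In monocyte-gated cells 2 of 27 were higher (Etfb and Decr1) and 3 lower (Slc27a1, Cpt2 and Ppard), where 2.11% of 8108 genes were higher and 12.2% lower, with medians of 0.09 and −0.15. The 2 and 3 lower members are no larger a share than that of all genes in either gate. In NK-gated cells 0 of 27 were past 1.5-fold, where 1.81% of genes were higher and 6.52% lower, with medians of 0.04 and −0.10. CD8-gated cells had 0 of 23 (3.66% and 6.02% of all genes, medians of 0.04 and −0.05) and other T cell-gated cells 0 of 12 (4.75% and 9.47%, medians of 0.08 and −0.04). In the Rhox5 and Cald1 class 3 of 29 were higher (Etfb, Acaa2 and Slc27a1) and 0 lower, where 4% and 8.07% of all genes were, with medians of 0.16 and −0.05. There Slc27a1 had a ratio of 1.57 (0.978 to 2.60), which includes 1. Over all barcodes 0 of 29 were higher and 3 lower (Acsl1, Slc27a1 and Ppard), where 4.39% and 9.65% of all genes were, with medians of 0.14 and −0.07.

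Summed by step, monocyte-gated cells had their highest ratio in electron transfer (145 and 221 CPM, ratio 1.52, 1.38 to 1.68), a sum in which Etfb was higher, the Etfa interval included 1 and Etfdh was at 0.778. Their ratio was also above 1 in the double-bond enzymes (108 and 133 CPM, ratio 1.23, 1.09 to 1.38) and the hydratase, dehydrogenase and thiolase genes (285 and 311 CPM, ratio 1.09, 1.01 to 1.18), and below 1 in activation and uptake (119 and 93.8 CPM, ratio 0.785, 0.692 to 0.890). In these sums the measured genes with an interval that excludes 1 were Ech1 and Decr1, then Acaa2, then Acsl4 and Slc27a1. The regulators are left out here, since nearly all of their UMIs in the phagocyte gates were those of Ppard. Macrophage-gated cells were above 1 in electron transfer (191 and 243 CPM, ratio 1.27, 1.12 to 1.44), the double-bond enzymes (154 and 189 CPM, ratio 1.22, 1.06 to 1.41) and the hydratase, dehydrogenase and thiolase genes (267 and 311 CPM, ratio 1.17, 1.04 to 1.301), and below it in the acyl-CoA dehydrogenases (164 and 138 CPM, ratio 0.843, 0.717 to 0.987). There only Ech1 of the double-bond enzymes and only Echs1 of the hydratase, dehydrogenase and thiolase genes had an interval that excludes 1. Etfa and Etfb had one in electron transfer, and no acyl-CoA dehydrogenase had one. In NK-gated cells activation and uptake was below 1 (101 and 88.7 CPM, ratio 0.879, 0.797 to 0.970) and the acyl-CoA dehydrogenases (210.0 and 228 CPM, ratio 1.09, 1.02 to 1.16) and electron transfer (287 and 309 CPM, ratio 1.07, 1.02 to 1.13) were above it. Of their measured genes only Acsl5 in activation and uptake and only Acadl of the dehydrogenases had an interval that excludes 1. Etfb and Etfdh had one in electron transfer. That step was also above 1 in CD8-gated (1.25, 1.12 to 1.40), neutrophil-gated (1.68, 1.01 to 2.84) and Rhox5 and Cald1 cells (1.40, 1.25 to 1.57). Activation and uptake was below 1 in neutrophil-gated (0.412, 0.253 to 0.654, from 65 and 27 UMIs) and cDC2-gated cells (0.588, 0.356 to 0.939, from 79 and 24 UMIs). For both steps, gates not named for them have intervals that include 1.

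A list of 48 other fatty acid oxidation genes had 19 measured in macrophage-gated cells, 0 higher and 3 lower (2.5% and 14.2% of all genes). Among the lower was Mmut, a mutase of propionate breakdown, at 14.0 and 6.80 CPM (0.487, 0.222 to 0.960). Monocyte-gated cells had 21 measured, 0 higher and 4 lower (2.11% and 12.2% of all genes). Among the lower was Acadsb, a dehydrogenase of branched short chains, at 10.7 and 6.50 CPM (0.605, 0.372 to 0.964). In NK-gated cells 0 of 34 were higher and 2 lower (1.81% and 6.52% of all genes), among them Abcd3, a peroxisomal transporter, at 9.80 and 4.21 CPM (0.430, 0.289 to 0.633). CD8-gated cells had 0 of 15 (3.66% higher and 6.02% lower of all genes) and other T cell-gated cells 0 of 5 (4.75% and 9.47%) past 1.5-fold. The Rhox5 and Cald1 class had 2 higher and 1 lower of 19 (4% and 8.07% of all genes), the latter Acaca, the carboxylase of fatty acid synthesis, at 31.7 and 19.4 CPM.

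Of 36 genes of fatty acid supply and PPAR targets, 24 were measured in macrophage-gated cells, 3 higher and 3 lower (2.5% and 14.2% of all genes). Fabp4, a fatty acid-binding protein of macrophages and adipocytes, was at 7.33 and 41.5 CPM (5.66, 3.61 to 9.02), with 36.1% of its ketogenic UMIs in 1 barcode. Hilpda, an inhibitor of lipolysis on lipid droplets, was at 215 and 364 CPM (1.70, 1.52 to 1.89), and G0s2, an inhibitor of the same lipase, at 8.51 and 24.5 CPM, with 41.7% of its ketogenic UMIs in 1 barcode. Nrf1 and Tfam, factors of mitochondrial gene expression, were at 28.9 and 13.6 CPM and at 27.0 and 13.6 CPM. The adipocyte genes Adipoq and Lep had 0 UMIs in these cells in both libraries.

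In monocyte-gated cells 2.11% of all genes were higher and 12.2% lower. Of the 25 list genes measured there, 1 was higher, Fabp4 at 7.28 and 15.3 CPM, and 4 were lower. These were Pparg, the PPAR of lipid storage, at 8.56 and 3.71 CPM (0.434, 0.230 to 0.780), Lipe, the hormone-sensitive lipase, at 27.5 and 18.1 CPM, Pdk1, a pyruvate dehydrogenase kinase, at 19.7 and 10.9 CPM and Prkaa1, a subunit of AMP-activated kinase, at 14.7 and 9.75 CPM. NK-gated cells had 1 higher of 23 (1.81% of all genes), G0s2 at 2.84 and 6.87 CPM. CD8-gated cells had 2 lower of 18 (6.02% of all genes), G0s2 at 29.2 and 13.8 CPM and the binding protein Fabp5 at 135 and 86.3 CPM. G0s2 was among the leading genes of the neutrophil gate, and the part of free neutrophil RNA in its macrophage, NK and CD8 levels was not tested. The Rhox5 and Cald1 class had 3 higher and 2 lower of 21 (4% and 8.07% of all genes). Angptl4, a secreted inhibitor of lipoprotein lipase and PPAR target, was at 14.0 and 59.7 CPM there (4.26, 2.92 to 6.42), Lpl, the lipase itself, at 33.9 and 18.6 CPM and the lipoprotein receptor Vldlr at 46.1 and 25.6 CPM.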

How the data were processed

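Single-cell libraries of the 2 diets (Chromium 3′ v3.1, HiSeq2500, per the labels' protocols) were analysed. The authors deposited unfiltered UMI counts per gene and barcode. The submitters' processing notes name Cell Ranger 6.0.0, Seurat 3.2.0 and GRCm38 (mm10), while the file headers name Cell Ranger 4. Python 3.11.15, scipy 1.17.1 and scanpy 1.11.5 were used.

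A barcode was kept as a cell from 500 UMIs and 300 genes upward (35623303 and 39758619 UMIs). Classes were gated on marker sums, with thresholds set after marker levels were seen, and barcodes of mixed lineage were left out in place of a doublet caller. Counts were summed per class and given as CPM, with exact Poisson intervals for levels and conditional binomial intervals for ratios (95%), without a pseudocount. A gene was measured with at least 50 UMIs in both libraries together, and counted as higher or lower from 1.5-fold. The comparison of phagocytes with lymphocytes instead required at least 50 UMIs in each library. The ratio procedure was run on simulated Poisson counts with set fold changes, without spread between cells or mice. Such a run checks the calculation only. UMIs mark molecules, and intervals cover counting error only. Gene positions are from GENCODE (32235 of 32285 identifiers matched).

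The members and lists were chosen with earlier results of these data known. Members were described in full where at least 1.5-fold between diets with an interval excluding 1, at least 2-fold over every other class in both libraries, a committed step or a regulator. Up to 6 genes per class were named from the other lists, at least 1.5-fold with an interval excluding 1. Alternatives varied the cell filters, gates, clusters, UMI minimum, denominator, pseudocount, thinning and ambient RNA. Ambient (free) RNA was subtracted at a small share of UMIs that was assumed, not estimated, and the same in both libraries.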

Additional observations from a re-analysis of the deposited data

Results flagged for a closer look

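The following values lie in cell classes under the minimum of 50 cells in each library, which enter no comparison above. Acadm was at 128 and 125 CPM in mature dendritic cell-gated cells (58 and 39 cells, normal then ketogenic), above its level in each of the 8 larger classes. Ech1 was at 377 and 247 CPM in plasmacytoid dendritic cell-gated cells (23 and 29 cells), also above the 8 larger classes. Their differences from the other classes were not tested.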

How the results depend on the processing

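Of 100 alternative values of the named ratios, 95 kept their direction and stayed within the 95% counting interval of the value given above. The log2 ratio of Slc27a1 in monocyte-gated cells was 0.75 with Leiden clusters, and that of Acaa2 in the Rhox5 and Cald1 class −0.61 with cells thinned to 1000 UMIs, both of the other sign. The former rests on 17 UMIs in both libraries together and the latter on far fewer UMIs than before thinning. With clusters at equal weight, an alternative chosen after seeing the data, Acsl1 in macrophage-gated cells was at −1.69 and Etfb in monocyte-gated cells at 0.69. One of the clusters behind the Acsl1 value held 3 and 0 UMIs of the gene. Thinning gave 0.30 for Etfb in the Rhox5 and Cald1 class. The cause of these shifts was not tested. Over all alternatives the log2 ratio of Etfb in monocyte-gated cells lay between 0.69 and 0.996, and that of Ppard between −1.34 and −0.60. All 60 alternative medians over the members stayed within the 95% order-statistic range of the median given above, which is taken over genes and not over replicates, and 101 of 120 alternative counts stayed within 1.5 times. In macrophage-gated cells 1 member was higher with Leiden clusters, 2 with the median of deeply counted genes at 0 and 1 with a minimum of 20 UMIs, and 1 was lower with a minimum of 100 UMIs and 0 with a pseudocount of 10 CPM. In monocyte-gated cells 1 was higher with Leiden clusters, and 1 was higher and 1 lower with a minimum of 100 UMIs and also with a pseudocount of 10 CPM. In NK-gated cells 1 was higher with the median of deep genes at 0 and 1 with ambient RNA subtracted. In CD8-gated cells 1 was higher and 3 were lower with mixed barcodes kept and also with a minimum of 20 UMIs. In other T cell-gated cells 3 were higher with Leiden clusters, 1 with mixed barcodes kept and 4 with a minimum of 20 UMIs. No paired analysis was possible because each diet has 1 library, so no replicate can be left out either.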
